A study of Mus musculus with 12 samples.

Results

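The integrated stress response was followed through 10 of its messenger RNAs in mouse liver: Atf4, Atf5, Atf3, Ddit3, Ppp1r15a, Trib3, Asns, Mthfd2, Sesn2 and Ddit4. They were taken by symbol from the count table, the first row of each gene being used, and make up 10 of its 15140 genes. All 10 passed the filter on low counts, as did 15000 genes in all. Livers came from male mice lacking Phb1 (prohibitin 1, symbol Phb in the table) in adipocytes, labelled Phb1 KO (KO, 6 libraries), and from WT males (6 libraries). All had eaten a high-fat diet with 60 kcal% fat for 3 months from an age of 7 to 8 weeks. The sources used here do not give the promoter that drove the deletion, the strain or the source animal of each library, so a p-value speaks of spread among libraries, which may be technical. In what follows, a liver means a library. The gene was deleted in fat and not in liver, so its liver level does not check the genotype: Phb averaged 94.2 ± 4.44 CPM (read counts scaled to library size) in KO and 85.2 ± 3.77 CPM in WT (mean ± SD of 6 libraries each), and its relative Phb2 averaged 142 ± 10.7 CPM in KO and 154 ± 11.5 CPM in WT.

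The integrated stress response is the route by which cells under amino acid shortage, endoplasmic reticulum (ER) stress, viral double-stranded RNA or haem deficiency slow protein synthesis. Stress kinases phosphorylate the initiation factor eIF2, most messages are then translated less, and a few with short upstream reading frames, Atf4 among them, are translated more. ATF4 protein turns on genes for amino acid uptake and synthesis, for one-carbon metabolism and for feedback on the pathway itself. Because ATF4 is controlled largely at translation, its messenger RNA is only one readout of the pathway, and the RNA of its target genes is the other. In liver the response is known for its part in adaptation to dietary protein and to mitochondrial and ER stress, and for the hormone FGF21, one of its secreted products.

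Many ATF4 target genes carry a C/EBP-ATF element (TGATGNAA) near their start. RefSeq promoter windows (build GRCm38.p6, 250 bases before to 50 after the start site) were found for all 10 genes, 11 windows in all since Atf5 has a pair of start sites. On either strand, the element was present in 3 genes, Trib3, Asns and Atf3, and in 3.97% of 32851 promoter windows of that length. The cyclic AMP response element TGACGTCA, a palindrome, was present in Ppp1r15a and in 1.79% of the windows. The ER stress element, CCAAT and CCACG with 9 bases between, was in none of the members' windows and in 0.119% of all windows. These stretches are shown because they are the members' windows that hold an element, in genes whose fold changes had both signs. They are read 5′ to 3′ along the gene, and capitals mark the element.
Asns, chr6:7693210-7693308, minus strand, element at -23 to -16 from the start site: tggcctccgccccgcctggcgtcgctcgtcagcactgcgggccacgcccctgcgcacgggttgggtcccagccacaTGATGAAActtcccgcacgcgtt
Atf3, chr1:191183410-191183519, minus strand, element on the opposite strand at -110 to -103: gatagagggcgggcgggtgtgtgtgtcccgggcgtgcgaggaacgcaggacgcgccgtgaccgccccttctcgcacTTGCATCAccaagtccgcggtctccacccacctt
Trib3, chr2:152344028-152344057, minus strand, element on the opposite strand at 15 to 22 after the start site: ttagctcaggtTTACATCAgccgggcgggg
Ppp1r15a, chr7:45526269-45526356, minus strand, cyclic AMP element at -12 to -5: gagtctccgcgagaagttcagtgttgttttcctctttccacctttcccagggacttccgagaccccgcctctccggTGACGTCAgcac
A match of letters is a description of the sequence, and no binding was measured.

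Total counts ran from 34121087 to 37973022 per KO library and from 30348123 to 40828767 per WT library. Summed over 8 hepatocyte markers (Alb, Ttr, Apob and others), the level was 77350 to 101800 CPM in KO and 76990 to 107700 CPM in WT, and no marker was called. The 10 macrophage markers summed to 170 to 335 CPM in KO and 294 to 469 CPM in WT. All 10 had negative log2 fold changes (median -0.74), where 50.6% of all genes were positive. In edgeR 3 fell, Cd5l, Vsig4 and Adgre1, where 2.64% of all genes were called. At an edgeR unadjusted p under 0.05 there were 8 of the 10, against 21.2% of all genes. The 8 lymphocyte markers tested were likewise all negative, with 1 called (Lck, a kinase of T cells) and 2 at an edgeR unadjusted p under 0.05. They summed to 1.92 to 4.15 CPM in KO and 4.79 to 6.93 CPM in WT. These calls changed with the fit: with the replicate block 2 macrophage markers and no lymphocyte marker were called. With 1 surrogate variable 5 macrophage markers and 1 lymphocyte marker were called. DESeq2 called 8 macrophage markers and 1 lymphocyte marker, against 8.58% of the genes it tested. In no alternative fit was a macrophage or lymphocyte marker positive. With 1 library left out, 0 (without WT replicates 2 or 4) to 7 (without KO replicate 4) macrophage markers were called, and Lck was lost without KO replicates 2, 4, 5 or 6 or WT replicates 1, 2, 4 or 5. No tested marker of neutrophils (3), stellate cells (8), sinusoidal endothelium (8), cholangiocytes (5) or adipocytes (2, Cfd and Cidec) was called, and the adipocyte pair summed to 4.07 to 104 CPM in KO and 7.64 to 42.3 CPM in WT. In bulk liver, fewer cells of a type and less RNA per cell cannot be told apart, and the part of these cells in the results on the stress genes was not tested.

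None of the 10 genes was called between KO and WT livers (quasi-likelihood test of edgeR, p adjusted by Benjamini-Hochberg from 0.0556 for Atf4 to 0.794 for Asns), where 2.64% of the 15000 genes tested were called, 172 higher and 224 lower. At an unadjusted p under 0.05 there were 4 of the 10, Atf4, Mthfd2, Ppp1r15a and Ddit3, all higher in KO, against 21.2% of all genes. DESeq2 on the same counts called 2, Atf4 and Mthfd2, against 8.58% of the genes it tested. In the authors' deposited table, Atf4, Ddit3 and Mthfd2 had adjusted p-values under 0.05, as had 5.58% of its genes with such a value. The log2 fold change was positive for 7 of the 10, with a median of 0.41, while the median over all genes was 0.0031 and 50.6% were positive. Without KO replicate 2 the median of the 10 was 0.14, with 6 positive. For none of the 10 did the values of the 6 KO and 6 WT livers separate without overlap, which 2.53% of all genes did.

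**Figure D1:**
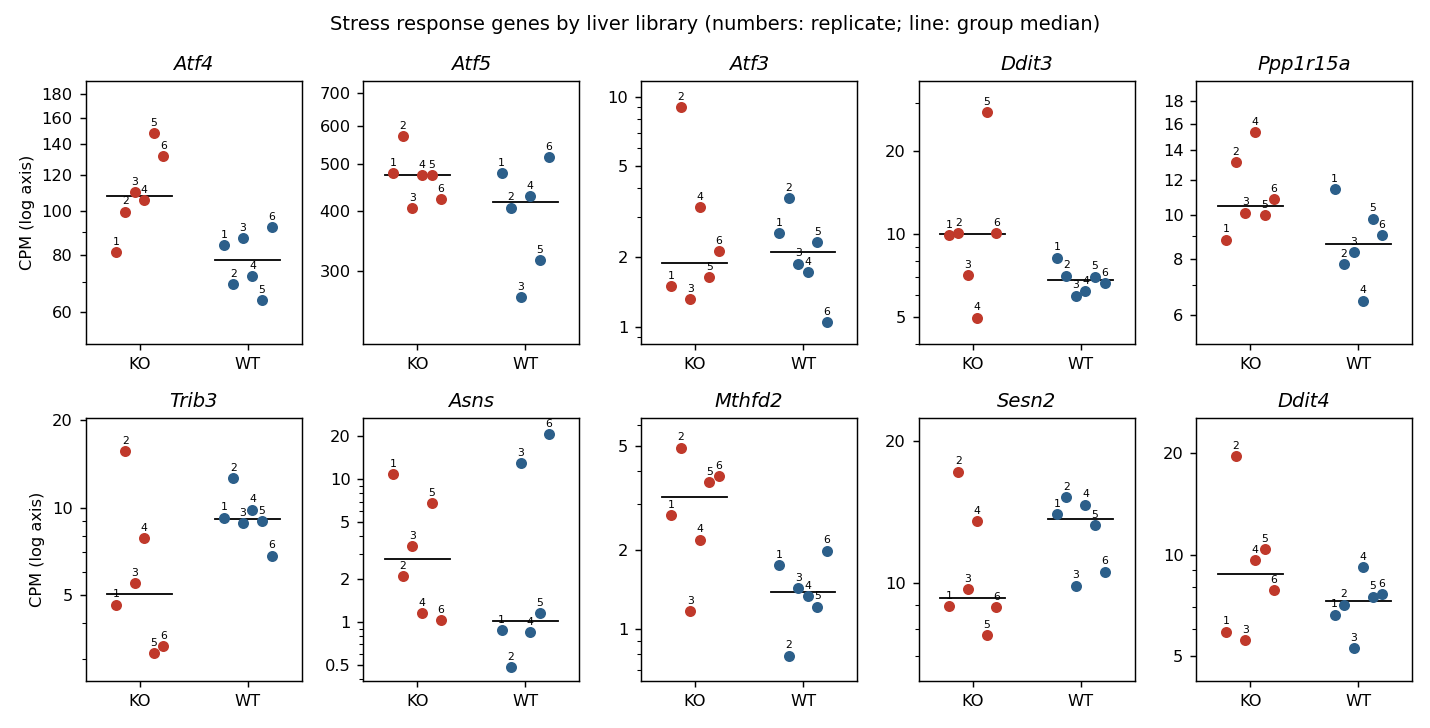
Level of each of the 10 genes in CPM on a log axis, KO livers at the left of each panel and WT livers at the right, 1 point per library with its replicate number and a line at the group median. All but 1 of the 6 KO points lie above every WT point for Atf4 and Mthfd2, KO replicate 2 is the highest point of 6 panels, and Asns is spread over a wide range in both groups.

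Among the transcription factors, Atf4 (ENSMUSG00000042406, chr15:80255184-80257541), the central factor of the response, came closest to the threshold. It was at 81.3, 108 and 148 CPM (lowest, median, highest) in KO and at 63.9, 78.1 and 92.2 CPM in WT. All KO livers but replicate 1 were above the highest WT liver. The difference was 1.44-fold (log2 0.53 ± 0.14 SE, edgeR adjusted p = 0.0556), and an exact two-sided permutation test over the livers gave p = 0.00866, unadjusted, where 0.00217 is the smallest possible. Whether Atf4 was called depended on the analysis: DESeq2 gave an adjusted p of 0.00962 and 0.0477 stood in the authors' deposited table, and over the 12 edgeR fits that each left out 1 library it ran from 0.0312 to 0.134. It was called without KO replicate 1 (0.0312) and without WT replicate 6 (0.0386), and the log2 fold change stayed between 0.42 and 0.61.

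Atf5 (ENSMUSG00000038539, chr7:44812256-44816658), a relative of Atf4 that is likewise controlled by upstream reading frames, was by far the most abundant of the 10. It was at 405, 474 and 571 CPM (lowest, median, highest) in KO and at 264, 417 and 517 CPM in WT. The groups overlapped over most of their range, with 1 KO liver above all WT livers and 2 WT livers below all KO livers. The log2 fold change was 0.23 ± 0.15 (edgeR adjusted p = 0.399). Exons of Nup62, on the other strand and at a mean of 16.7 CPM, overlap those of Atf5, and the sources used here do not give the strand setting of the counting. Reads from the shared stretch therefore cannot be assigned to Atf5 with certainty.

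Ddit3 (ENSMUSG00000025408, chr10:127290774-127296288) encodes CHOP, the factor that links prolonged stress to cell death. It was at 4.99, 10.01 and 27.7 CPM in KO and at 5.99, 6.84 and 8.24 CPM in WT, again as lowest, median and highest. The KO group held both the lowest liver of all 12 (replicate 4) and the highest (replicate 5), and 4 KO livers were above every WT liver. The difference was 1.70-fold (log2 0.76 ± 0.33, edgeR adjusted p = 0.212, unadjusted p = 0.0405), and without KO replicate 5 the log2 fold change was 0.29 (adjusted p = 0.387). A second annotated gene of the name Ddit3, on the same strand, overlaps its exons and was not among the genes tested. Exons of Mars1, on the opposite strand, overlap Ddit3 as well. Mars1, at a mean of 65.0 CPM with a log2 fold change of 0.28, encodes methionyl-tRNA synthetase. Without the strand setting, reads from the stretch it shares with Ddit3 cannot be assigned to Ddit3 with certainty.

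Atf3 (ENSMUSG00000026628, chr1:191170296-191218039) is induced early in many kinds of stress and represses as well as activates. Its level was 1.32, 1.89 and 9.03 CPM in KO (lowest, median, highest) and 1.05, 2.11 and 3.63 CPM in WT. KO replicate 2 was the highest, and the KO median was below that of WT although the fitted log2 fold change was 0.53 ± 0.47 (edgeR adjusted p = 0.559). Without that library it was -0.15, so the direction rests on 1 liver.

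**Figure D2:**
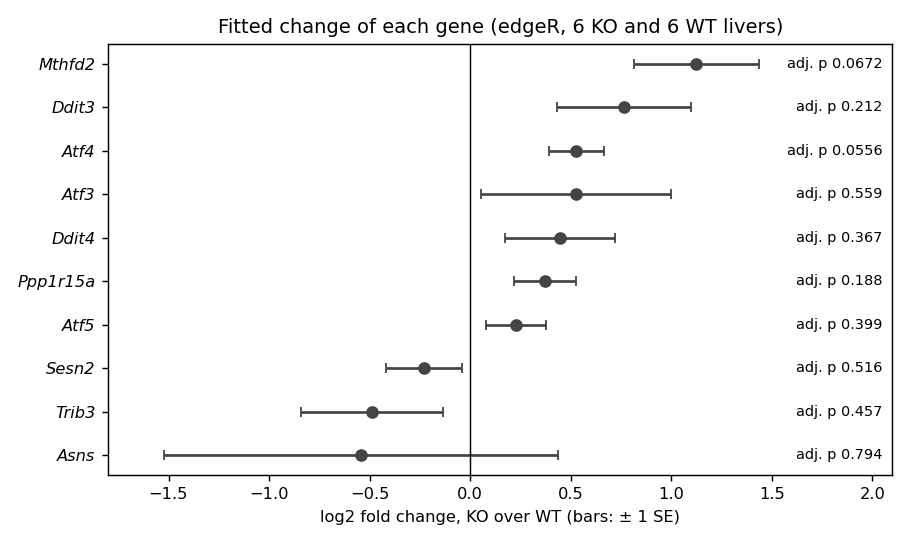
Fitted log2 fold change of KO over WT for each of the 10 genes with bars of 1 SE and the edgeR adjusted p at the right. Mthfd2 is farthest to the right at 1.12, Asns has the widest bar, and Sesn2, Trib3 and Asns lie left of 0.

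The feedback arm of the pathway had fold changes of both signs. Ppp1r15a (GADD34; ENSMUSG00000040435, chr7:45522916-45526268) is the phosphatase subunit that removes the phosphate from eIF2 and restores translation. It was at 8.83, 10.5 and 15.3 CPM in KO (lowest, median, highest) and at 6.45, 8.65 and 11.5 CPM in WT. In KO, 2 livers (replicates 2 and 4) were above all WT livers and 3 WT livers below all KO livers, a log2 fold change of 0.37 ± 0.15 (edgeR adjusted p = 0.188, exact permutation p = 0.0541). Tulp2, which overlaps its exons on the opposite strand, was at a mean of 0.608 CPM.

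Trib3 (ENSMUSG00000032715, chr2:152337422-152344032), the pseudokinase that binds ATF4 and dampens it and is also known to bind the kinase AKT, had a negative fold change. It was at 3.16, 5.05 and 15.7 CPM in KO (lowest, median, highest) and at 6.83, 9.10 and 12.6 CPM in WT. In KO, 4 livers were below every WT liver, and KO replicate 2 was above every WT liver. The log2 fold change was -0.49 ± 0.35 (edgeR adjusted p = 0.457). Without KO replicate 2 it was -0.94, with an adjusted p of 0.0621, the lowest that any of the 12 fits with a library left out gave for Trib3.

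Of the 2 metabolic genes, Mthfd2 (ENSMUSG00000005667, chr6:83305691-83325908), a mitochondrial enzyme of the folate-linked one-carbon pathway, had the largest fold change of the 10. It was at 1.17, 3.19 and 4.93 CPM in KO (lowest, median, highest) and at 0.793, 1.38 and 1.99 CPM in WT. All KO livers but replicate 3 were above the highest WT liver. These levels rest on 38 to 205 reads per KO library and 31 to 59 reads per WT library. The difference was 2.18-fold (log2 1.12 ± 0.31, edgeR adjusted p = 0.0672, exact permutation p = 0.0217). DESeq2 gave an adjusted p of 0.00996 and 0.00548 stood in the authors' deposited table, and edgeR with 1 library left out gave 0.0295 to 0.149. It was called without KO replicate 3 (0.0295) and without WT replicate 6 (0.0497).

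Asns (ENSMUSG00000029752, chr6:7675169-7693254) makes asparagine and is a textbook ATF4 target with the element shown above. By the ratio of the highest to the lowest liver it varied the most of the 10 in both groups. The range was 1.03 to 10.9 CPM in KO (median 2.75) and 0.486 to 20.8 CPM in WT (median 1.02). The highest value was 10.6 times the lowest in KO and 42.9 times in WT, where replicates 3 and 6 stood at 13.0 and 20.8 CPM and the other 4 at 1.17 CPM or less. The log2 fold change of -0.54 ± 0.98 (edgeR adjusted p = 0.794) turned to 0.36 without WT replicate 6, to 0.46 in limma-voom and to 0.53 with a replicate block, so these livers give no direction for Asns.

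Sesn2 (ENSMUSG00000028893, chr4:132492032-132510501) and Ddit4 (REDD1; ENSMUSG00000020108, chr10:59949669-59951834) restrain the growth kinase complex mTORC1, Sesn2 as a leucine sensor and Ddit4 through the TSC complex. Sesn2 was at 7.77, 9.33 and 17.2 CPM in KO (lowest, median, highest) and at 9.88, 13.7 and 15.2 CPM in WT. As for Trib3, 4 KO livers were below every WT liver and KO replicate 2 was above them, for a log2 fold change of -0.23 ± 0.19 (edgeR adjusted p = 0.516) that was -0.40 without that library (0.175). Ddit4 was at 5.56, 8.75 and 19.6 CPM in KO and at 5.27, 7.31 and 9.20 CPM in WT, with KO replicate 2 the highest once more. Its log2 fold change was 0.45 ± 0.27 (edgeR adjusted p = 0.367), and 0.12 without that library (0.741).

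On a scale that allows genes to be compared, CPM per kilobase of exon, the order was the same at the top in both groups. Atf5 was at 236 ± 29.2 CPM per kb in KO and 202 ± 48.3 in WT, and Atf4 followed at 47.8 ± 10.1 in KO and 33.1 ± 4.78 in WT (mean ± SD of 6). Ddit3, Ddit4, Ppp1r15a, Sesn2 and Trib3 lay between 3.15 and 6.80 CPM per kb in KO and between 3.00 and 4.42 in WT, and neighbours in that order differed by less than the larger SD, except Sesn2 (3.72 ± 0.635) and Ppp1r15a (3.00 ± 0.588) in WT. Asns and Atf3 were lower, at 1.55 ± 1.43 and 1.47 ± 1.38 in KO and at 2.27 ± 3.17 and 1.02 ± 0.406 in WT. Mthfd2 was the lowest, at 0.884 ± 0.382 CPM per kb in KO and 0.407 ± 0.121 in WT.

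The 10 genes did not vary from liver to liver as a unit. KO replicate 2 was the highest of the 12 libraries for 6 of them (Trib3, Atf3, Atf5, Sesn2, Ddit4 and Mthfd2), against 10.5% of all genes. KO replicate 5 was the highest for Atf4 and Ddit3 (12% of all genes), KO replicate 4 for Ppp1r15a and WT replicate 6 for Asns. After each group's mean was taken off, Pearson's r over the 12 libraries had a median of 0.187 across the 45 pairs and ran from -0.642 (Asns with Sesn2) to 0.911 (Trib3 with Sesn2), with 15 pairs negative.

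Trib3 with Sesn2 was the 1 pair that passed over the 45 (r = 0.911, permutation p = 0.00014, Benjamini-Hochberg 0.0063; Spearman's rho = 0.951, permutation p = 2e-05, adjusted 0.0009). The relation was present within KO (r = 0.972) and within WT (r = 0.733). Without KO replicates 2 and 5, the libraries farthest from the median of Trib3, r was 0.796 (permutation p = 0.0048, adjusted 0.216), so the call rests in part on them. Atf3 went with both, at r = 0.848 with Sesn2 and 0.845 with Trib3, and neither passed (permutation tests, adjusted 0.0756 each). The factor and its dampener went in opposite directions without passing: Atf4 with Trib3 had r = -0.507 and Atf4 with Sesn2 r = -0.492 (permutation tests, adjusted 0.467 each).

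**Figure D3:**
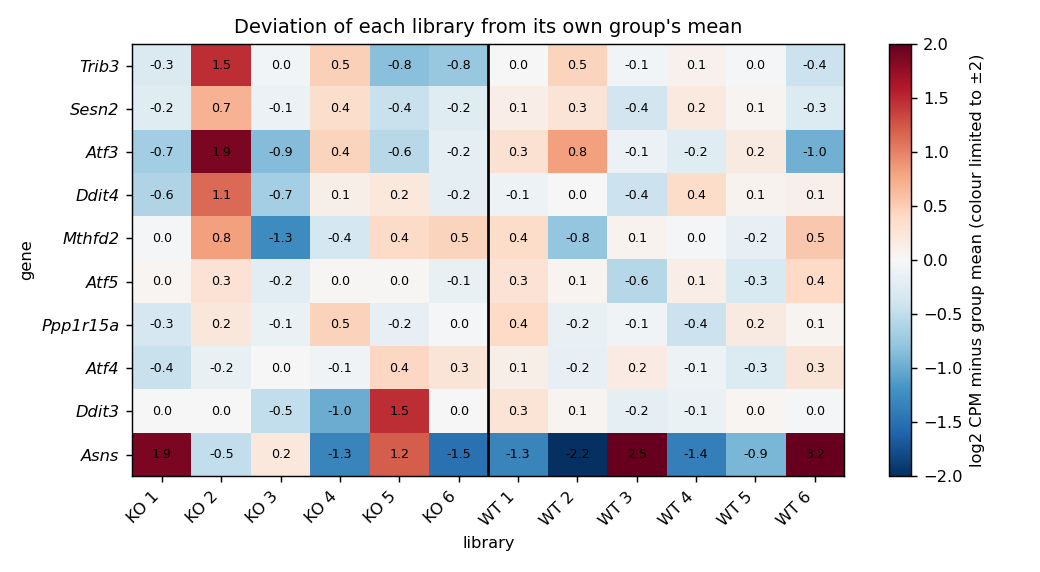
Deviation of log2 CPM of each gene (rows) in each library (columns, KO left of the line and WT right) from the mean of its own group, printed in each cell and coloured, with the colour limited to ±2. KO replicate 2 is high for Trib3, Sesn2, Atf3, Ddit4 and Mthfd2, KO replicate 5 is high for Ddit3, and Asns swings the most in both groups.

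Across 12871 other genes whose mean was 1 CPM or more, those that followed a member most closely were ranked by the same r, as a description over 12 libraries. For Atf5 the closest was Fgf21, the stress-induced liver hormone, at r = 0.941 (0.878 within KO and 0.958 within WT). Fgf21 ran from 10.3 to 30.9 CPM in KO (median 11.4) and from 2.26 to 18.8 CPM in WT (median 10.3), with its highest value in KO replicate 2 and its lowest in WT replicate 3, as for Atf5. Net1 (r = 0.902) and Fam168b (0.890) came next.

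For Mthfd2 the closest genes were Sec61a1 (r = 0.946), the channel through which new proteins enter the ER, Sdf2l1 (0.922), an ER chaperone cofactor, and Nrd1 (0.899), a peptidase. Sdf2l1 averaged 57.3 ± 25.5 CPM in KO and 33.6 ± 11.3 CPM in WT (log2 0.77 ± 0.33, edgeR adjusted p = 0.200), and Sec61a1 131 ± 19.5 CPM in KO and 102 ± 11.97 CPM in WT (log2 0.36 ± 0.11, adjusted p = 0.0812). For Atf4 they were Ppp1r3c (r = 0.956), which targets a phosphatase to glycogen, Ap2m1 (0.946), an endocytosis adaptor subunit, and Prep (0.941), a peptidase. Their own log2 fold changes lay between -0.13 and 0.12, against 0.53 for Atf4, and none was called.

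Atf3 was most like Lgals3 (r = 0.930), Ywhah (0.926) and Mmp12 (0.922). Lgals3, which encodes galectin-3, and Mmp12, an elastase, are both known as macrophage products. Lgals3 was at 17.0 CPM in KO replicate 2 and at 2.62 to 8.24 CPM in the other KO livers, against 4.19 to 9.81 CPM in WT. The macrophage markers of KO replicate 2 went opposite ways: Lyz2, a lysozyme, was at 76.3 CPM, the highest of the 12 libraries (19.2 to 57.7 CPM in the other KO livers, 35.5 to 69.7 CPM in WT). Clec4f and Timd4, markers of resident Kupffer cells, were at 21.9 and 0.891 CPM, the lowest of the 12. The part of macrophages in the level of Atf3 in that liver was not tested. Trib3 was closest to Snx10 (r = 0.944), Cstb (0.936) and Aebp2 (0.923), and Sesn2 to Gadd45b (0.955), a stress gene, the pseudogene Gpx4-ps2 (0.954) and Fmnl1 (0.947). Ddit4 was closest to Ube2g2 (0.889), a ubiquitin-conjugating enzyme of ER-associated degradation, which rose in KO: it averaged 36.8 ± 5.00 CPM in KO and 25.1 ± 1.92 CPM in WT (log2 0.56 ± 0.09, edgeR adjusted p = 0.0149). For Ddit3 the nearest was Nbeal2 (r = 0.961, but 0.602 within WT), for Ppp1r15a Atp6ap2 (0.854) and for Asns E130311K13Rik (0.918).

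**Figure D4:**
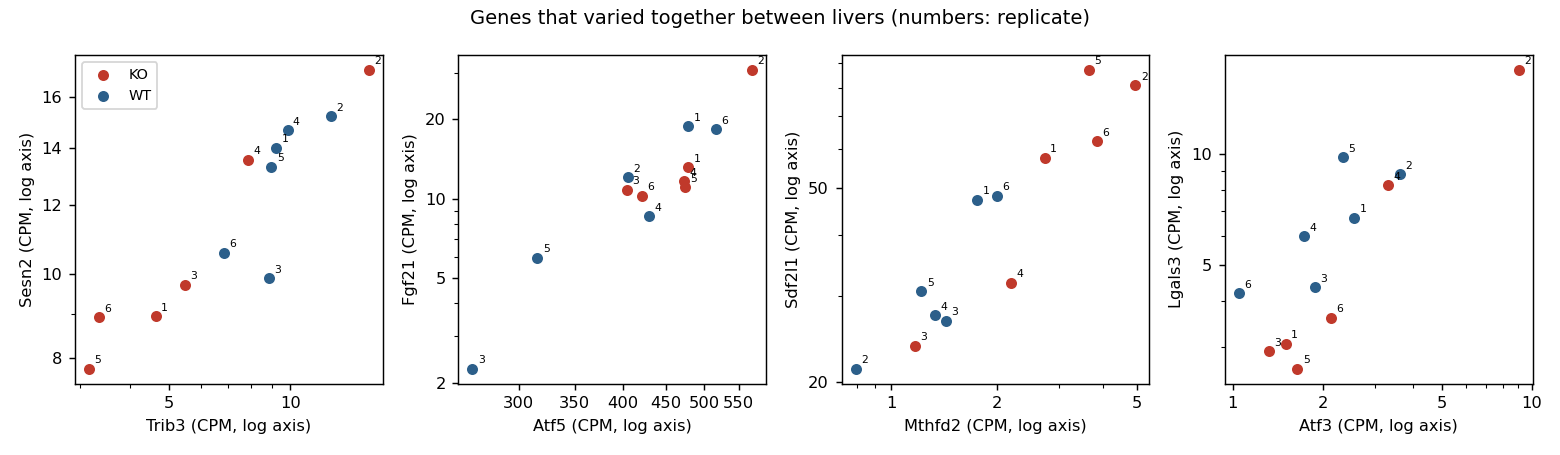
Levels in CPM on log axes of 4 pairs of genes in each liver, KO and WT in separate colours with replicate numbers: Trib3 and Sesn2, Atf5 and Fgf21, Mthfd2 and Sdf2l1, Atf3 and Lgals3. KO replicate 2 is the farthest point to the upper right in 3 panels, and in all 4 panels both groups follow a rising trend.

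The wider pathway was read from gene lists. Among 20 tested of 22 other targets of the response, none was called (edgeR), 10 were positive and the median log2 fold change was 0.01, with 3 at an unadjusted p under 0.05, against 21.2% of all genes. Those were Ero1a, an ER oxidase (0.28 ± 0.08, adjusted p = 0.0808), Cars, the cysteinyl-tRNA synthetase (0.49 ± 0.15, 0.0919), and Cebpb, a partner of ATF4 on its element (-0.46 ± 0.19, 0.193). Cars is also counted among the tRNA synthetases. DESeq2 gave Ero1a an adjusted p of 0.0350 and Cars 0.0338. Chac1, a glutathione-degrading enzyme often read as an ATF4 marker, averaged 5.40 ± 3.03 CPM in KO and 2.69 ± 1.56 CPM in WT (log2 1.01 ± 0.49, edgeR adjusted p = 0.259). Gdf15, a secreted stress hormone, averaged 10.2 ± 9.66 CPM in KO and 15.5 ± 8.96 CPM in WT, and Fgf21 14.7 ± 8.04 CPM in KO and 11 ± 6.69 CPM in WT. Chac1, Gdf15 and Fgf21 were named for their known roles after their values were seen.

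The machinery upstream was read from 22 genes. They were eIF2 kinases, eIF2 and eIF2B subunits and phosphatases, together with Eif2a, Impact, Gcn1, Dnajc3, Dele1 and Oma1. The list had none called (edgeR), 12 positive, a median of 0.05 and 10 at an unadjusted p under 0.05 (21.2% of all genes). DESeq2 called 1 of the 22, higher in KO, against 8.58% of the genes it tested. With the replicate block edgeR called 1, lower. Eif2b4, a subunit of the exchange factor that the response blocks, averaged 35.99 ± 2.06 CPM in KO and 29.7 ± 3.17 CPM in WT. Its adjusted p was 0.0616 in edgeR and 0.0167 in DESeq2. Eif2s1, the subunit that is phosphorylated, averaged 40.4 ± 3.19 CPM in KO and 34.9 ± 2.47 CPM in WT (edgeR adjusted p = 0.102, DESeq2 0.0541). The kinase messages had fold changes of both signs: Eif2ak2, the double-stranded RNA sensor, had a log2 fold change of -0.32 ± 0.11 (edgeR adjusted p = 0.110), Eif2ak3, the ER sensor, 0.20 ± 0.19, Eif2ak4, the amino acid sensor, -0.09 ± 0.11, and Eif2ak1, the haem sensor, -0.05 ± 0.09. Phosphorylation, by which these kinases act, was not measured.

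Enzymes of serine, one-carbon and proline synthesis, the company of Mthfd2, numbered 15 tested of 16, of which none was called (edgeR), 8 were positive and 4 had an unadjusted p under 0.05 (21.2% of all genes), with a median of 0.01. Psph, the last enzyme of serine synthesis, averaged 6.09 ± 1.12 CPM in KO and 4.07 ± 0.795 CPM in WT (log2 0.58 ± 0.16, edgeR adjusted p = 0.0663, DESeq2 0.0117). Mthfd1l, the mitochondrial partner of Mthfd2, averaged 1.74 ± 0.710 CPM in KO and 0.942 ± 0.312 CPM in WT (log2 0.88 ± 0.30, edgeR adjusted p = 0.114, DESeq2 0.0497).

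Of 14 tested amino acid transporters, 1 rose, none fell, 5 were positive and the median was -0.09, where 2.64% of all genes were called. At an edgeR unadjusted p under 0.05 there were 4, against 21.2% of all genes. Among these Slc38a1 had a negative log2 fold change (-0.58 ± 0.23, edgeR adjusted p = 0.169). The one that rose was Slc1a4, a carrier of serine, alanine and other neutral amino acids. It was at 7.37, 9.60 and 13.7 CPM (lowest, median, highest) in KO and at 4.09, 5.58 and 6.60 CPM in WT. All 6 KO livers were above all 6 WT livers, and 2.53% of all genes separated without overlap in either direction. Slc1a4 differed 1.81-fold (log2 0.85 ± 0.17, edgeR adjusted p = 0.0248, exact permutation p = 0.00217, the smallest the design allows). With 1 library left out its edgeR adjusted p was 0.0211 to 0.0591 and the call was lost in 4 fits (without KO replicate 6 or WT replicates 2, 4 or 5).

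The cytosolic tRNA synthetases, which load amino acids onto tRNA and include known ATF4 targets, were all positive: 20 of 20, where 50.6% of all genes were, with a median log2 fold change of 0.28 and 15 at an unadjusted p under 0.05 (21.2% of all genes). By the adjusted test 1 rose, where 2.64% of all genes were called. That was Farsa, at 25.0 ± 2.50 CPM in KO and 18.97 ± 2.51 CPM in WT (log2 0.40 ± 0.09, edgeR adjusted p = 0.0390). With 1 library left out, that p was 0.0259 to 0.103, and Farsa was called in 4 of the 12 fits (without KO replicates 1 or 4 or WT replicates 1 or 6). Lars was at 37.2 ± 2.88 CPM in KO and 30.1 ± 2.89 CPM in WT, with all 6 KO livers above all 6 WT livers (log2 0.30 ± 0.08, edgeR adjusted p = 0.0507). Tars, the most changed by fold, averaged 157 ± 26.5 CPM in KO and 102 ± 27.3 CPM in WT (adjusted p = 0.0637). The sum over the 20 genes was 1368 to 1628 CPM in KO and 1054 to 1352 CPM in WT. All 20 stayed positive in each of the 20 alternative fits, while the number called by edgeR with 1 library left out was 0 to 5, with none without KO replicates 2, 5 or 6 or WT replicates 2, 3, 4 or 5. DESeq2 called 9.

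The ATF6 and IRE1 branches, the other arms of the unfolded protein response, had 19 of 22 genes positive, against 50.6% of all genes, and a median of 0.23. At an unadjusted p under 0.05 there were 6 of the 22, close to the 21.2% of all genes. Atf6b, a relative of the ER stress factor ATF6, rose, at 28.6 ± 3.30 CPM in KO and 22.2 ± 1.47 CPM in WT (log2 0.37 ± 0.08, edgeR adjusted p = 0.0353). With 1 library left out, that p was 0.0177 to 0.0881, and Atf6b was called in 3 of the 12 fits (without KO replicates 1 or 3 or WT replicate 6). Hspa5 (BiP), the main ER chaperone, was at 821, 1556 and 1805 CPM in KO (lowest, median, highest) and at 704, 926 and 1358 CPM in WT, with 4 KO livers above all WT livers (log2 0.55 ± 0.22, adjusted p = 0.178). The sum of the 22 genes, in which abundant ones such as Hspa5 and Calr weigh most, separated the KO livers among themselves. Replicates 3 and 4 were at 4684 and 4902 CPM, inside the WT range of 4634 to 6539 CPM. The other 4 were at 6796 to 8066 CPM, above that range. KO replicates 3 and 4 were also the KO livers lowest in Mthfd2 and in Ddit3.

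**Figure D5:**
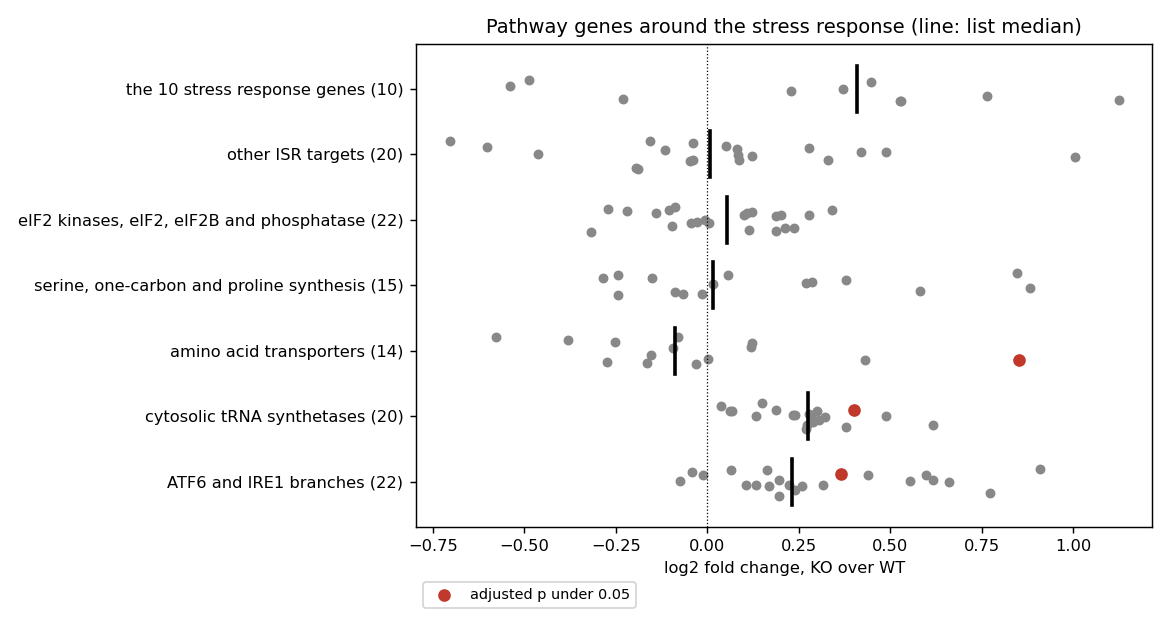
Log2 fold change of KO over WT for each tested gene of 7 lists, 1 point per gene, with the number tested beside the list's name, a bar at the list median and genes with an edgeR adjusted p under 0.05 in colour. The points of the cytosolic tRNA synthetases all lie right of 0, and those of the other ISR (integrated stress response) targets lie on both sides with a median of 0.01.

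Genes that other stimuli share with the response were read for comparison. Of 16 p53 targets none was called (median 0.07) and 3 had an edgeR unadjusted p under 0.05, against 21.2% of all genes. Of 19 tested immediate early genes none was called (median 0.10) and 4 were under that p. The 16 glucocorticoid targets had 6 under it, 7 positive and 9 negative. Their log2 fold changes ran from -1.98 to 1.72, with a median of -0.01. Of them 1 rose, where 2.64% of all genes were called. That was Tat, the tyrosine aminotransferase of hepatocytes, at 1222 ± 157 CPM in KO and 704 ± 148 CPM in WT (log2 0.80 ± 0.14, edgeR adjusted p = 0.0176), with no overlap between the groups, and the call was lost without WT replicate 4 (0.0502). The part of glucocorticoids, which also induce Ddit4, in its values was not tested.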

How the data were processed

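PolyA-selected liver RNA was extracted with TRIzol, per the labels' protocols. Per the submitters' processing notes, the authors used FastQC, Trimmomatic, HISAT2, SAMtools, featureCounts and DESeq2, without versions, and build GRCm38. The deposited table held raw read counts per gene and library, and the authors' log2 fold change and adjusted p-value, per the file headers. Its 15344 rows held 204 repeats with the same counts, which were left out. The sources used here do not give the annotation or strand setting.

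Counts were tested with edgeR 4.0.16 (R 4.3.3; TMM, filterByExpr, robust quasi-likelihood, two-sided, Benjamini-Hochberg over 15000 genes, threshold 0.05). SE is the absolute log2 fold change over the square root of F. The scripts were tested on simulated counts. Alternatives used DESeq2 1.42.0, limma 3.58.1 and sva 3.50.0. Correlations used log2 CPM (prior count 0.5) and 100000 permutations within groups. Positions came from GENCODE M21. A search for close copies of the members (blastn 2.17.0, at least 90% identity over 200 bases) listed none. Genes that overlap a member's exons, such as the second Ddit3 entry, were read from positions and not from that search.

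The members and lists were chosen with earlier results of these data known. Named were the members, Phb and Phb2, called list genes or otherwise the up to 3 with the smallest p, and the 3 genes most like a member; others described were chosen after their values were seen. Of the genes this rule names, 1 is not reported here.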

Additional observations from a re-analysis of the deposited data

How the results depend on the processing

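The number of the 10 genes called higher in KO was 0 in edgeR with TMM, and likewise with RLE size factors, total counts, no filter, a filter of at least 1 CPM in 6 libraries, limma-voom and a replicate block. It was 2 in DESeq2 (Atf4 and Mthfd2), 1 with 1 surrogate variable (Atf4), and 0 to 2 with 1 library left out. None was called lower in any of these fits. The number of all genes called, 396, was 257 with total counts only and 1236 in DESeq2, and ran from 25 (without WT replicate 4) to 700 (without WT replicate 6) with 1 library left out. Of 200 values of the 10 genes under the alternatives, 189 kept direction and side of the threshold, 7 passed it with the same direction (all Atf4 or Mthfd2), and 4 reversed. Those were Asns in limma-voom (0.46), with the replicate block (0.53) and without WT replicate 6 (0.36), and Atf3 without KO replicate 2 (-0.15); the cause was not tested. With 1 library left out, Asns ran from -1.09 to 0.36 and Atf3 from -0.15 to 0.73. The labels seen here do not say whether libraries with the same replicate number share more than the number. The correlation of their deviations ran from -0.23 to 0.43 over the 6 numbers, and 3 libraries correlated best with their own number. With the replicate block 0 of the 10 genes and 374 of all genes were called. Among the list genes, Farsa missed the threshold with total counts (adjusted p = 0.0647) and with the replicate block (0.0569), and Atf6b with total counts (0.0815), in edgeR. Mthfd2, Atf3 and Asns rest on low counts in some libraries, which limits their precision.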
